A study of Homo sapiens with 10 samples.

Results

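The genes described here are the collagens, the laminin chains and the core of the basement membrane. They were taken by symbol: every collagen chain gene and every laminin chain gene in the count table, with NID1, NID2, HSPG2, FN1, SPARC and AGRN. Earlier results of these data were known when this choice was made. This gave 62 genes of the 58735 lines of the table, in 5 structural classes. There were 24 basement membrane genes, 11 fibrillar collagens, 10 FACIT collagens (which attach to the surface of fibrils), 15 other collagens and 2 matrix glycoproteins. Of the 62, 29 had enough counts to be tested and 33 did not.

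Basement membranes are thin sheets of matrix under endothelial and epithelial cells. Laminin trimers of 1 alpha, 1 beta and 1 gamma chain self-assemble on cell surface receptors, type IV collagen forms a covalent network over them, and nidogen, perlecan and agrin tie the sheets together. Fibrillar collagens are made mainly by fibroblasts and mural cells and give connective tissue its tensile strength. In brain vessels the endothelial basement membrane is part of the blood-brain barrier.

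RNA came from HCMECs, human brain endothelial cells that the labels record as a cell line without naming it. Cells in the siCtrl group (5 libraries) had a control siRNA for 48 h, and cells in the siUSP9X group (5 libraries) an siRNA against USP9X, a deubiquitinase. All 10 libraries, controls included, then had Wnt3a for 12 h, so no unstimulated cells enter any value. Nothing in the labels tells separate cultures from repeated preparations of 1 culture, so each p-value reflects variation among libraries that may be only technical.

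Library totals ran from 15958362 to 26467787 counts. USP9X mRNA stood at 416, 283, 330, 324 and 352 counts per 1000000 library counts (CPM) in siCtrl 1 to 5 and at 36.5, 68.8, 27.6, 22.4 and 20.7 CPM in siUSP9X 1 to 5 (log2 fold change -3.28 ± 0.32 SE, edgeR adjusted p = 4.03e-04). Replicate 2 of siUSP9X stood apart from its group: its chi-square distance per degree of freedom to the other siUSP9X libraries was 188 to 241, against 5.25 to 9.19 among those 4. For the genes named, a call that changed without it is given both ways. Endothelial markers had a summed level of 236 to 300 CPM in siCtrl and 230 to 254 CPM in siUSP9X without replicate 2, which had 110 CPM. Of those 13 markers, PECAM1, KDR, VWF, TEK, TIE1, ERG and EMCN had under 20 counts over all libraries, and ERG and EMCN had 0. The other 6 had at least 20, and 4 were tested. In edgeR 0 of the 4 were called with all libraries and 2 were lower without replicate 2. DESeq2 and limma-voom each called 1 of the 4, and an unadjusted p under 0.05 was found for 1. Over all tested genes, edgeR called 7.31% with all libraries, and 11.5% were lower without replicate 2. Of the 13934 tested genes DESeq2 called 2342 and limma-voom 1037, and 3877 had an unadjusted p under 0.05. ENG, named after its values were seen, lay at 79.6 to 92.6 CPM in siCtrl and 39.3 to 70.2 CPM in siUSP9X (log2 fold change -0.51 ± 0.14 SE, edgeR adjusted p = 0.0561, and 0.00193 without replicate 2). EGFL7, likewise, had -0.89 ± 0.43 SE (edgeR adjusted p = 0.199, and 0.00788 without replicate 2). CDH5 and ESAM, the others tested, were called in neither fit. CDH5, low at a mean of 0.545 CPM in siCtrl, had 0.68 ± 0.34 SE (edgeR adjusted p = 0.214). ESAM, the most abundant at 161 CPM in siCtrl, had -0.18 ± 0.22 SE (edgeR adjusted p = 0.595). Without replicate 2 ESAM had 0.0040 (edgeR adjusted p = 0.980).

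The COL4A1 and COL4A2 genes, whose changes differed, start head to head on chromosome 13, and 2 short stretches between their starts are shown because both genes begin there. COL4A1 (chr13:110148963-110307233, minus strand) and COL4A2 (chr13:110305812-110513209, plus strand; GENCODE 29, GRCh38) encode the partner chains of the common type IV collagen trimer. The RefSeq start sites (GRCh38.p14) lie at position 110307157 for COL4A1 and 110307284 for COL4A2, with 126 bases between them, of which 80.2% are G or C. The search covered both strands for CCAAT and GGGCGG, which do not overlap each other here, and found 1 match of each, on the plus strand. Capitals mark the match, and each is shown with 12 bases on either side, read 5′ to 3′ on the plus strand.
CCAAT, chr13:110307167-110307195: gggccgagctccCCAATttgttggcgctg
GGGCGG, chr13:110307207-110307236: ccggcggtgcgcGGGCGGcgcctcaaaggg
Of 35116 RefSeq promoter windows of 300 bases, 34.6% held CCAAT and 45.0% held GGGCGG on either strand. In the 126 bases just before each start the shares were 21.1% and 34.6%. COL4A5 and COL4A6, on chromosome X, also start head to head, with 379 bases between their RefSeq start sites (1415 for a second COL4A6 start). The starts of COL4A3 and COL4A4, on chromosome 2, are 418 bases apart.

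In siUSP9X cells, 5 of the 29 tested genes passed the threshold (edgeR quasi-likelihood test, Benjamini-Hochberg adjusted p under 0.05), 2 higher and 3 lower. COL4A5 and COL5A2 rose, and COL4A1 and LAMB3 were among those that fell. These 5 are 17.2% of the tested members. Over all 13934 tested genes, 7.31% were called, 4.09% higher and 3.22% lower. The other 24 members were not called, and 13 members had an unadjusted p under 0.05, as did 3877 of the 13934 tested genes. DESeq2 called 8 members and limma-voom 5, and over all tested genes they called 2342 and 1037. The 5 siUSP9X libraries lay wholly above the siCtrl libraries for COL4A5, COL5A2 and FN1 and wholly below them for 3 members, COL4A1 and LAMB3 among them, 6 of 29 members in all, where 14.6% of all tested genes had groups that did not overlap. Without siUSP9X replicate 2, 7 members were higher (COL4A5, COL5A2, FN1, COL27A1, COL12A1, COL7A1 and SPARC) and 5 lower (COL4A1, LAMB3, AGRN and COL4A4 among them). That fit called 23.4% of all its tested genes, 11.9% higher and 11.5% lower. Leaving out any other single library gave 2 higher and 1 to 3 lower.

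**Figure D1:**
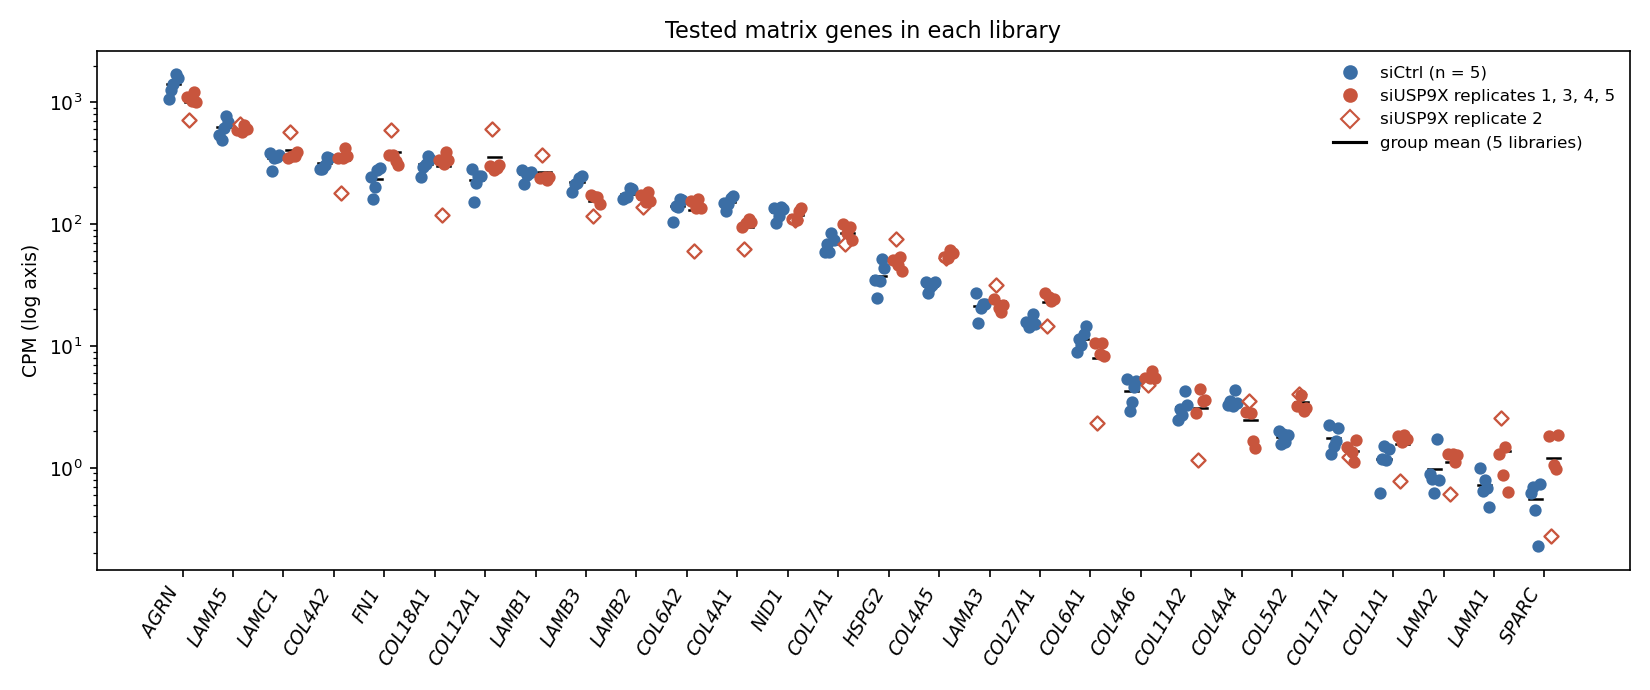
Level of 28 of the tested genes in every library, in CPM on a log axis. Points are single libraries, open diamonds siUSP9X replicate 2, and bars the group means over 5 libraries. The siUSP9X points lie apart from the siCtrl points for COL4A5, COL5A2 and FN1 (above) and for COL4A1 and LAMB3 (below).

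By class, the basement membrane genes had 18 of 24 tested, 1 higher and 3 lower, and a median log2 fold change of 0.02, against 0.03 over all tested genes. Of the fibrillar collagens 4 of 11 were tested, 1 was higher and 0 lower, with a median of 0.47. The 4 tested fibrillar genes lay between -0.03 and 0.95, inside the range of the basement membrane genes but for COL5A2. The only tested FACIT collagen, the 4 other collagens and the 2 glycoproteins had 0 calls under edgeR, with 3 of these 7 at an unadjusted p under 0.05 and 1, FN1, called by DESeq2. Without siUSP9X replicate 2 the medians were -0.02 for basement membrane and 0.62 for fibrillar genes.

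Summed over the class, basement membrane mRNA stood at 3794, 3734, 4241, 4937 and 4737 CPM in siCtrl 1 to 5 and at 3802, 3368, 3650, 4127 and 3724 CPM in siUSP9X 1 to 5. The groups overlapped. Fibrillar collagen mRNA summed to 21.1, 20.0, 21.7, 26.0 and 22.3 CPM in siCtrl and to 36.5, 20.9, 35.9, 31.8 and 33.7 CPM in siUSP9X, where replicate 2 alone lay inside the siCtrl range. The ratio of the sums was 193 ± 12.2 (SD, n = 5) in siCtrl and 121 ± 24.7 (SD, n = 5) in siUSP9X. It is a ratio of counts, not scaled by length, and single genes weigh heavily in it. COL27A1, not called with all libraries, gave 15.7 of the 22.2 CPM of the fibrillar sum in siCtrl and 22.9 of 31.8 CPM in siUSP9X, and AGRN, also not called, 1404 of 4288 and 1010 of 3734 CPM of the other sum. In the 5 siUSP9X libraries the ratio was 104, 161, 102, 130 and 111, each under the lowest siCtrl value of 180. As in any bulk sample, fewer cells of a type and less RNA per cell cannot be told apart in these sums.

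**Figure D2:**
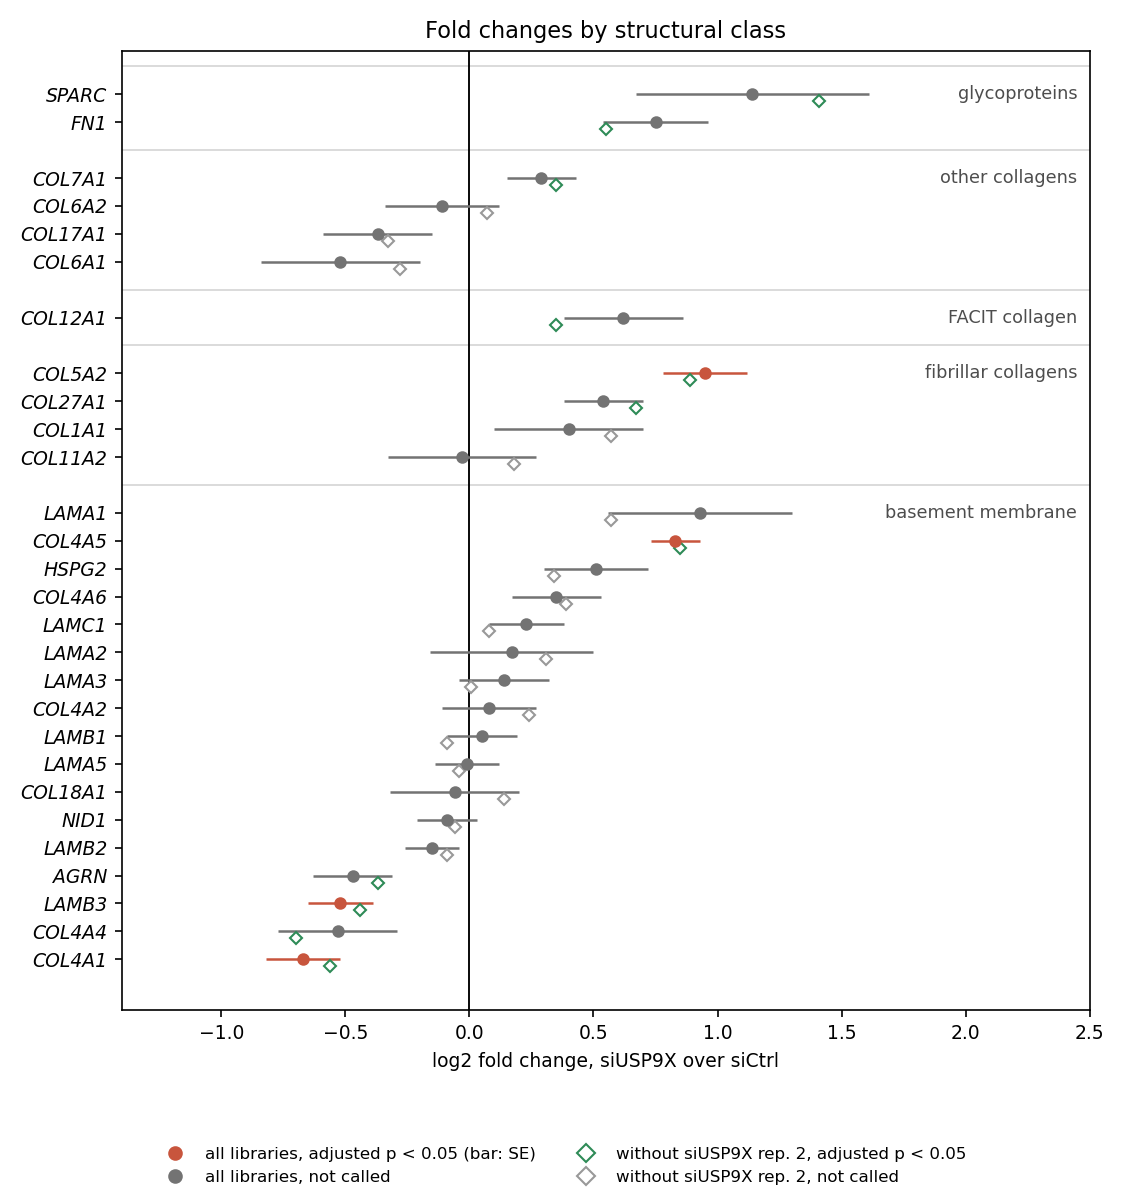
Log2 fold change of siUSP9X over siCtrl for 28 of the tested genes, by class. Circles are the fit of all libraries with its SE, red where the adjusted p was under 0.05, and diamonds the fit without siUSP9X replicate 2, green where its adjusted p was under 0.05. COL4A1 lies far to the left, at -0.67, and FN1, COL12A1 and SPARC have a grey circle and a green diamond.

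Type IV collagen chains moved apart. COL4A5, the alpha 5 chain that is altered in Alport syndrome (chrX:108439844-108697545, plus strand), stood at 33.7, 27.0, 30.6, 31.4 and 33.7 CPM in siCtrl 1 to 5 and at 53.6, 52.2, 52.7, 61.1 and 58.1 CPM in siUSP9X 1 to 5. Every siUSP9X library was above every siCtrl library, and replicate 2 was close to the rest. The rise was 1.78-fold (log2 fold change 0.83 ± 0.10 SE, edgeR adjusted p = 8.50e-04) and was called in all 10 fits that left out 1 library.

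COL4A1, the alpha 1 chain, stood at 149, 128, 146, 165 and 169 CPM in siCtrl and at 94.8, 62.8, 102, 111 and 104 CPM in siUSP9X. The groups did not overlap, and replicate 2 was the lowest library. The mean fell from 151 ± 16.4 to 95.0 ± 18.9 CPM (SD, n = 5 each; log2 fold change -0.67 ± 0.15 SE, edgeR adjusted p = 0.0238). Without replicate 2 the value was -0.56 (edgeR adjusted p = 1.85e-04). The call was lost without siCtrl 3, siCtrl 4, siCtrl 5 or siUSP9X 1 (edgeR adjusted p = 0.0604, 0.0700, 0.0720 and 0.0527).

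COL4A2, the alpha 2 chain, stood at 284, 285, 307, 356 and 346 CPM in siCtrl and at 350, 180, 351, 424 and 362 CPM in siUSP9X. The groups overlapped, with siUSP9X replicate 2 the lowest library and siUSP9X replicate 4 the highest. Its log2 fold change was 0.08 ± 0.19 SE (edgeR adjusted p = 0.800) with all libraries and 0.24 (edgeR adjusted p = 0.0530) without replicate 2. COL4A2 and COL4A1 counts come from the same libraries, so their ratio needs no scaling for library depth. Their longest coding transcripts hold 62.0% and 55.4% GC, and a dependence of a library on GC content is not removed from the ratio. That ratio was 1.91, 2.22, 2.10, 2.15 and 2.05 in siCtrl and 3.69, 2.86, 3.46, 3.81 and 3.46 in siUSP9X, higher in 5 of 5 siUSP9X libraries, replicate 2 included. The mean ratio was 2.09 ± 0.118 and 3.46 ± 0.365 (SD, n = 5 each), a log2 difference of 0.72 (exact two-sided permutation test, p = 0.00794, the smallest that 5 against 5 allows, and 0.00952 adjusted over 6 ratios). This ratio was chosen after its values were seen, and the adjustment does not correct for that choice. The p-value is therefore not independent support for a change.

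COL4A6, the alpha 6 chain that pairs with alpha 5, stood at 5.33, 2.92, 3.44, 4.62 and 5.14 CPM in siCtrl and at 5.47, 4.76, 5.45, 6.22 and 5.41 CPM in siUSP9X. The groups overlapped through siUSP9X replicate 2, and the gene was not called (log2 fold change 0.35 ± 0.18 SE, edgeR adjusted p = 0.228). Its ratio to COL4A5 was 0.136 ± 0.0236 in siCtrl and 0.0983 ± 0.00568 in siUSP9X (SD, n = 5 each; log2 difference -0.45, exact two-sided permutation p = 0.00794, adjusted 0.00952), below every siCtrl value in 5 of 5 libraries. COL4A5 over COL4A1 went from 0.207 ± 0.0137 to 0.604 ± 0.128, a 2.88-fold higher ratio, with the same p-values. In the head-to-head pairs COL4A1 with COL4A2 and COL4A5 with COL4A6, the ratio between the 2 genes did not overlap between groups in these libraries. The ratios named here and for LAMB3 were chosen after their values were seen, so their p-values are not independent support.

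COL4A4 stood at 3.29, 3.56, 3.21, 4.35 and 3.39 CPM in siCtrl and at 2.88, 3.54, 2.81, 1.66 and 1.45 CPM in siUSP9X, where only replicate 2 lay inside the siCtrl range. It was not called with all libraries (log2 fold change -0.53 ± 0.24 SE, edgeR adjusted p = 0.179) and was lower without replicate 2 (-0.70, edgeR adjusted p = 0.0288). COL4A3, its head-to-head partner, had 27 counts over all siCtrl libraries and 46 over all siUSP9X libraries and was not tested.

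**Figure D3:**
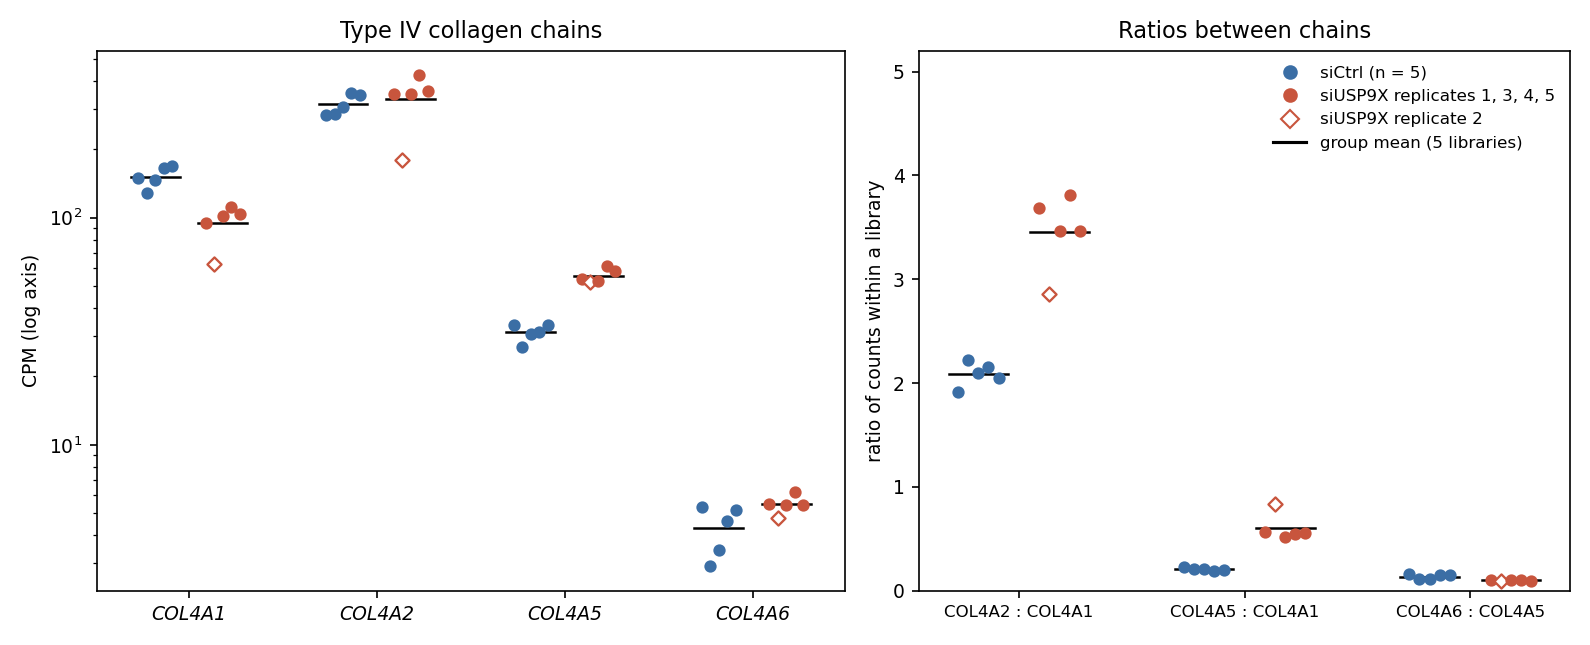
Left, type IV collagen chains in CPM on a log axis; right, ratios of the counts of 2 chains within a library. Points are libraries, open diamonds siUSP9X replicate 2, bars group means. The COL4A2 to COL4A1 ratio is 1.91 to 2.22 in siCtrl and 2.86 to 3.81 in siUSP9X.

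Laminin 332, best known from epithelial anchorage, holds the alpha 3 and beta 3 chains. LAMB3 (beta 3, chr1:209614870-209652466, minus strand) stood at 185, 214, 217, 239 and 250 CPM in siCtrl and at 172, 116, 166, 168 and 147 CPM in siUSP9X. The groups did not overlap, with siCtrl 1 and siUSP9X 1 nearest to each other and siUSP9X replicate 2 lowest. Its log2 fold change was -0.52 ± 0.13 SE (edgeR adjusted p = 0.0340), and -0.44 without replicate 2 (edgeR adjusted p = 0.00147). Leaving out siCtrl 2, 3, 4 or 5 or siUSP9X 3 or 5 ended the call (edgeR adjusted p = 0.0764, 0.0846, 0.0916, 0.0949, 0.0583 and 0.0800). LAMA3, the alpha chain of the same trimer, stood at 27.4, 15.3, 20.5, 21.9 and 22.0 CPM in siCtrl and at 24.4, 31.8, 20.6, 19.1 and 21.8 CPM in siUSP9X, with overlapping groups (log2 fold change 0.14 ± 0.18 SE, edgeR adjusted p = 0.617).

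Epithelial keratins moved with LAMB3. KRT18 and KRT8, which the epithelial marker list holds, fell with log2 fold changes of -0.74 ± 0.10 and -0.45 ± 0.12 SE (edgeR adjusted p = 0.00216 and 0.0400), and KRT8 kept its call in 3 of 10 fits that left out 1 library. The summed level of the 10 epithelial markers was 3324 to 4185 CPM in siCtrl and 2038 to 2762 CPM in siUSP9X (2546 to 2762 without replicate 2). KRT8 and KRT18 made up nearly all of that sum (means of 2156 and 1580 CPM in siCtrl). Of the 10 markers, 5 were tested, 2 were called with all libraries and 4 without replicate 2. Over all tested genes, 7.31% were called with all libraries and 23.4% without replicate 2. CLDN4 went the other way (0.29 ± 0.21 SE, edgeR adjusted p = 0.365). CDH1, CLDN7 and KRT19 were too low to test, and KRT5 and KRT14 were at 0 counts. The part of these markers in the fall of LAMB3 was not tested.

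LAMA1, LAMA2, LAMA5, LAMB1, LAMB2 and LAMC1 had 0 calls under edgeR, DESeq2 and limma-voom, and LAMA1 alone of these 6 had an unadjusted p under 0.05 (0.0281). LAMA5, the main alpha chain of mature vessels, stood at 538, 493, 615, 773 and 686 CPM in siCtrl and at 595, 663, 568, 648 and 608 CPM in siUSP9X. All siUSP9X values lay inside the siCtrl range (log2 fold change -0.01 ± 0.13 SE, edgeR adjusted p = 0.959). LAMB1 stood at 277, 215, 252, 264 and 269 CPM in siCtrl and at 238, 369, 245, 230 and 245 CPM in siUSP9X (log2 fold change 0.05 ± 0.14 SE, edgeR adjusted p = 0.813). LAMB2 stood at 161, 168, 168, 199 and 193 CPM against 174, 137, 151, 185 and 156 CPM, with overlapping groups (log2 fold change -0.15 ± 0.11 SE, edgeR adjusted p = 0.382).

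LAMC1, the gamma chain shared by most laminins (chr1:183023460-183145592, plus strand), stood at 385, 272, 346, 355 and 372 CPM in siCtrl and at 348, 570, 364, 364 and 387 CPM in siUSP9X. Replicate 2 was far above the rest, and the log2 fold change was 0.23 ± 0.15 SE with all libraries and 0.08 without it (edgeR adjusted p = 0.325 and 0.553). The LAMB3 to LAMB1 ratio was 0.871 ± 0.122 in siCtrl and 0.609 ± 0.172 in siUSP9X (SD, n = 5 each; exact two-sided permutation p = 0.0317 before and after adjustment). That difference was lost without siCtrl 2, 3, 4 or 5 or siUSP9X 2 or 5 (exact permutation p = 0.0635 in each), and the log2 difference went from -0.57 to -0.34 without replicate 2. The ratio was lowest of its group in siCtrl 1 (0.670) and in siUSP9X replicate 2 (0.315). The transcripts hold 58.9% (LAMB3) and 49.5% GC (LAMB1), and the part of GC content in the ratio was not tested.

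LAMA4, the alpha chain of laminin 411 and a usual product of endothelial cells, was near the limit of detection: the 5 siCtrl libraries together held 1 count (0.00993 CPM, with an exact 95% Poisson interval from 2.52e-04 to 0.0553 CPM). Those of siUSP9X held 0, which allows up to 0.0351 CPM by a floor of 3 counts over the group and up to 0.0431 CPM by the same Poisson interval. These limits cover counting error only. LAMA1 (0.718 ± 0.190 CPM in siCtrl and 1.37 ± 0.738 in siUSP9X) and LAMA2 (0.971 ± 0.442 and 1.12 ± 0.294 CPM; SD, n = 5 each) were low, with overlapping groups. LAMA5 was the most abundant alpha chain per kilobase of merged exons, at 43.5 ± 7.89 CPM per kb in siCtrl against 1.46 ± 0.295 for LAMA3 (SD, n = 5 each).

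**Figure D4:**
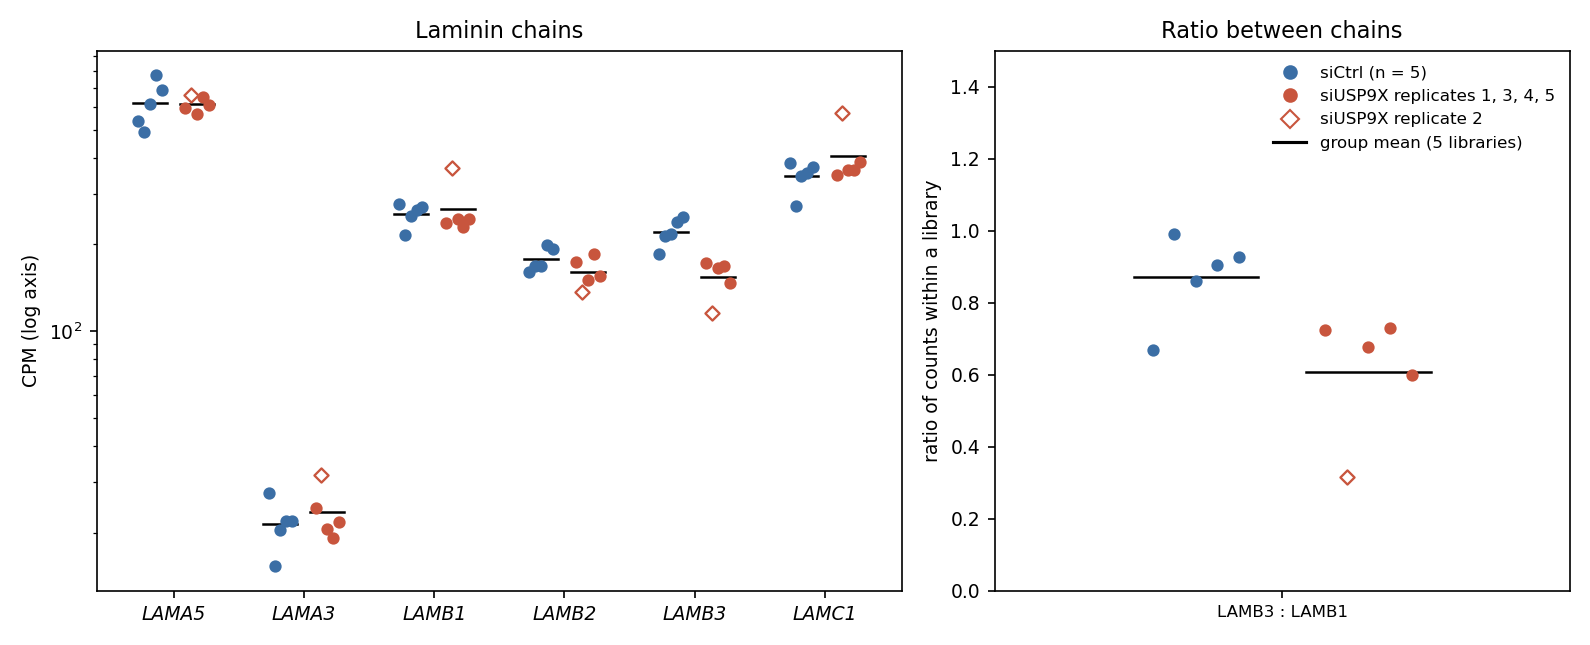
Left, laminin chains in CPM on a log axis; right, the ratio of LAMB3 to LAMB1 counts within a library. Points are libraries, open diamonds siUSP9X replicate 2, bars group means. LAMB3 is lower in all siUSP9X libraries, while LAMA5, LAMA3, LAMB1, LAMB2 and LAMC1 overlap between groups.

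Of the linkers between laminin and type IV collagen, agrin had the highest level per kilobase. AGRN, a heparan sulfate proteoglycan of brain vessel basement membranes (chr1:1020123-1056118, plus strand), stood at 1072, 1259, 1410, 1693 and 1586 CPM in siCtrl and at 1101, 712, 1020, 1211 and 1008 CPM in siUSP9X. The groups overlapped through siCtrl 1 and siUSP9X 1 and 4, with replicate 2 lowest. AGRN was not called by edgeR with all libraries (log2 fold change -0.47 ± 0.16 SE, adjusted p = 0.0923), was called by DESeq2 (adjusted p = 0.0369), and was lower in edgeR without replicate 2 (-0.37, adjusted p = 0.0190).

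HSPG2 (perlecan), the other large heparan sulfate proteoglycan, stood at 34.9, 24.6, 33.8, 51.6 and 43.7 CPM in siCtrl and at 50.7, 76.1, 46.6, 53.6 and 41.0 CPM in siUSP9X. Its groups overlapped (log2 fold change 0.51 ± 0.21 SE, edgeR adjusted p = 0.150, and 0.34 and 0.125 without replicate 2). NID1 (nidogen 1), which bridges laminin and type IV collagen, stood at 136, 102, 117, 139 and 134 CPM against 110, 109, 108, 128 and 136 CPM and overlapped almost fully (log2 fold change -0.09 ± 0.12 SE, edgeR adjusted p = 0.623). NID2 had 9 and 12 counts per group and was not tested. COL18A1, the source of the endostatin fragment, stood at 244, 296, 312, 361 and 342 CPM in siCtrl and at 334, 118, 312, 392 and 335 CPM in siUSP9X. Apart from the low replicate 2 its values overlapped (log2 fold change -0.06 ± 0.26 SE, edgeR adjusted p = 0.887, and 0.14 without replicate 2). Its exons share 16.4% of their bases with SLC19A1 on the opposite strand. The libraries were stranded, but the sources used here do not give whether strand was used in counting.

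Fibrillar collagen levels were low, at most 1.12 CPM per kb of merged exons in siCtrl (COL27A1). COL5A2, the alpha 2 chain of type V collagen that regulates fibril diameter (chr2:189031896-189225312, minus strand), stood at 1.99, 1.57, 1.91, 1.63 and 1.86 CPM in siCtrl and at 3.23, 4.04, 3.99, 2.90 and 3.08 CPM in siUSP9X. All siUSP9X libraries were above all siCtrl libraries. The rise was 1.93-fold (log2 fold change 0.95 ± 0.17 SE, edgeR adjusted p = 0.00794), called in all 10 fits that left out 1 library. Its partner COL5A1 had 5 and 6 counts over the groups, too few to test.

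COL27A1 stood at 15.6, 14.2, 15.2, 18.4 and 15.1 CPM in siCtrl and at 27.4, 14.6, 25.1, 23.2 and 24.1 CPM in siUSP9X. Replicates 1, 3, 4 and 5 of siUSP9X were above the siCtrl range and replicate 2 was inside it. The call turned on that library: the log2 fold change was 0.54 ± 0.16 SE with it (edgeR adjusted p = 0.0636; DESeq2 adjusted p = 0.0173) and 0.67 without it (edgeR adjusted p = 1.31e-04).

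COL1A1, a chain of type I collagen, stood at 0.627, 1.19, 1.52, 1.17 and 1.43 CPM in siCtrl and at 1.82, 0.775, 1.64, 1.85 and 1.74 CPM in siUSP9X, and was not called (log2 fold change 0.40 ± 0.30 SE, edgeR adjusted p = 0.381). COL11A2 stood at 2.46, 3.02, 2.70, 4.28 and 3.29 CPM against 2.82, 1.16, 4.40, 3.51 and 3.60 CPM (log2 fold change -0.03 ± 0.30 SE, edgeR adjusted p = 0.949). In both genes replicate 2 was the lowest siUSP9X library. COL1A2, the partner of COL1A1, had 0 counts over siCtrl and 1 over siUSP9X, and COL3A1 had 8 and 5. Fibroblast markers, which mark the usual source of these chains, summed to 0.492 to 1.51 CPM in siCtrl and 0.930 to 2.05 CPM in siUSP9X, with 1 of 8 tested, 0 called under edgeR, DESeq2 and limma-voom, 0 at an unadjusted p under 0.05, and DPT at 0 counts. Mural cell markers summed to 3.08 to 5.44 and 4.15 to 7.00 CPM, with 3 of 10 tested, 0 called by the same tools and 1 at an unadjusted p under 0.05. Their part in the fibrillar values was not tested.

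FN1 and COL12A1 belong to neither the basement membrane nor the fibrillar class. FN1 (fibronectin, chr2:215360440-215436172, minus strand), which binds integrins and other matrix proteins, stood at 245, 161, 201, 278 and 289 CPM in siCtrl and at 371, 593, 369, 329 and 306 CPM in siUSP9X. All siUSP9X values were above all siCtrl values, and replicate 2 was far above the rest. It missed the threshold with all libraries (log2 fold change 0.75 ± 0.21 SE, edgeR adjusted p = 0.0528). It was called by DESeq2 (adjusted p = 0.0103) and without replicate 2 (0.55, edgeR adjusted p = 0.00693).

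COL12A1, a FACIT collagen, stood at 282, 151, 218, 249 and 248 CPM in siCtrl and at 298, 599, 279, 286 and 307 CPM in siUSP9X. siUSP9X 3 alone lay under the highest siCtrl value. Its log2 fold change was 0.62 ± 0.24 SE (edgeR adjusted p = 0.119), and 0.35 without replicate 2 (edgeR adjusted p = 0.0481). SPARC, a collagen-binding glycoprotein, was near the filter, at 0.627, 0.702, 0.451, 0.227 and 0.742 CPM in siCtrl and 1.82, 0.277, 1.06, 0.986 and 1.86 CPM in siUSP9X. Replicate 2 alone lay in the siCtrl range. For SPARC the log2 fold change was 1.14 ± 0.47 SE with all libraries (edgeR adjusted p = 0.147) and 1.41 without replicate 2 (edgeR adjusted p = 0.00735).

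The other collagens split between membrane, anchoring and microfibril types, and 4 of 15 were tested. COL6A2, a chain of the beaded type VI microfibril, stood at 104, 142, 137, 160 and 157 CPM in siCtrl and at 155, 60.7, 135, 162 and 135 CPM in siUSP9X (log2 fold change -0.11 ± 0.23 SE, edgeR adjusted p = 0.767, and 0.07 and 0.665 without replicate 2). Replicate 2 lay below all other libraries for COL6A2 and for its partner COL6A1. COL7A1, which forms anchoring fibrils, stood at 69.2 ± 11.1 and 84.4 ± 13.3 CPM (SD, n = 5 each) and was higher only in the fit without replicate 2 among the fits that left out a library (0.35, edgeR adjusted p = 0.0309; 0.29 ± 0.14 SE and 0.211 with all). COL17A1, of hemidesmosomes, stood at 1.77 ± 0.403 and 1.37 ± 0.224 CPM (SD, n = 5 each), with overlapping groups.

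The 33 untested members had between 0 and 73 counts over all 10 libraries, the highest being COL4A3. Of these, 20 had at most 10 counts, and COL21A1 had 0. COL15A1, a vascular basement membrane collagen, had 0 counts in siCtrl and 1 in siUSP9X. Among the better covered, COL24A1 had 22 counts over siCtrl and 43 over siUSP9X, and COL16A1 26 and 47.

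Per kilobase of merged exons, AGRN had the highest level in siCtrl, 131 ± 23.1 CPM per kb (SD, n = 5). LAMB3 (47.1 ± 5.32), LAMA5 (43.5 ± 7.89), LAMC1 (41.2 ± 5.23) and COL18A1 (36.5 ± 5.29 CPM per kb) were among those that followed, each within 1 SD of the next of these. COL4A2 (16.4 ± 1.75) and COL4A1 (10.3 ± 1.11 CPM per kb) differed by more than their spread. COL4A5 had a level of 2.64 ± 0.234 CPM per kb, COL27A1 1.12 ± 0.114, COL5A2 0.240 ± 0.0246 and COL1A1 0.121 ± 0.0354. With the length of the longest coding transcript in its place, a choice made after the data were seen, COL4A2 was the fifth in order (48.6 CPM per kb) rather than at place 12. AGRN, LAMA5 and LAMC1 together held 45.5% of all member counts, and the members 0.417 to 0.574% of each library's counts.

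Enzymes and carriers that make collagen were measured too: of 30 listed, 27 were tested, 2 rose and 1 fell (11.1% of those tested, against 7.31% of all tested genes). PLOD2, a lysyl hydroxylase that prepares collagen for cross-linking, rose from 267 ± 26.7 to 509 ± 157 CPM (SD, n = 5 each; log2 fold change 0.93 ± 0.18 SE, edgeR adjusted p = 0.0133; 0.73 without replicate 2). SEC23A, a coat protein of the vesicles that export procollagen, rose by 0.77 ± 0.16 SE on the log2 scale (edgeR adjusted p = 0.0157), a call lost without siCtrl 4. CRTAP, part of the prolyl 3-hydroxylase complex, fell from 146 ± 5.67 to 105 ± 5.41 CPM (SD, n = 5 each; -0.48 ± 0.08 SE, edgeR adjusted p = 0.00794). The uncalled members with the highest mean CPM were P4HB (-0.22 ± 0.15 SE) and FKBP10 (-0.18 ± 0.23 SE). Without replicate 2, 7 of the list were higher and 4 lower, 11 of 27, where that fit called 23.4% of all tested genes.

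Of 16 matrix processing genes, 11 were tested. In the edgeR fit of all libraries 0 rose and 2 fell (18.2%, against 7.31% of all tested genes). Of the 11, 6 had an unadjusted p under 0.05, DESeq2 called 3 and limma-voom 2. Over all 13934 tested genes those counts were 3877, 2342 and 1037. PXDN, the peroxidase that forms the sulfilimine cross-link of type IV collagen, fell from 6.54 ± 0.306 to 4.17 ± 0.597 CPM (SD, n = 5 each; log2 fold change -0.65 ± 0.13 SE, edgeR adjusted p = 0.0157), a call lost without siCtrl 3. TGM2, a transglutaminase that cross-links fibronectin, fell from 1969 ± 251 to 1396 ± 183 CPM (-0.50 ± 0.12 SE, edgeR adjusted p = 0.0346), a call kept in 4 of 10 fits that left out 1 library. LOXL2 and FURIN, the uncalled ones with the highest mean CPM, had 0.33 ± 0.15 and 0.09 ± 0.12 SE in log2 fold change. LOXL2 was higher without replicate 2 (0.45, edgeR adjusted p = 5.61e-04).

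Of 20 receptors, 18 were tested, 2 rose and 2 fell (22.2%, against 7.31% of all tested genes), while DESeq2 called 8 and limma-voom 5. Over all 13934 tested genes those tools called 2342 and 1037. ITGB4, which pairs with ITGA6 to bind laminin 332, fell from 28.4 ± 5.96 to 16.1 ± 2.14 CPM (SD, n = 5 each; log2 fold change -0.82 ± 0.16 SE, edgeR adjusted p = 0.0128). ITGA6 was not called with all libraries (-0.40 ± 0.24 SE, edgeR adjusted p = 0.281) and was lower without replicate 2 (-0.72, edgeR adjusted p = 9.54e-05). ITGA3, the alpha chain of another laminin receptor, fell from 1634 ± 153 to 1153 ± 89.7 CPM (-0.50 ± 0.10 SE, edgeR adjusted p = 0.0135). ITGA1, the alpha chain of a collagen receptor that binds type IV collagen, rose with 1.02 ± 0.26 SE (edgeR adjusted p = 0.0403; 0.68 and 0.00113 without replicate 2), kept in 4 of 10 fits that left out a library. SDC2, a syndecan, rose with 0.45 ± 0.12 SE (edgeR adjusted p = 0.0461), kept in 1 of 10. ITGB1, the shared beta chain, was not called with all libraries (0.35 ± 0.13 SE, edgeR adjusted p = 0.121) and was higher without replicate 2 (0.22, edgeR adjusted p = 0.0469). ITGAV was called in neither fit (0.46 ± 0.24 SE with all libraries and 0.17 without replicate 2). Without replicate 2, 6 receptors were higher and 7 lower, where that fit called 11.9% of all tested genes higher and 11.5% lower.

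Of 35 other matrix genes, 19 were tested. In the edgeR fit of all libraries 5 rose and 0 fell (26.3%, against 7.31% of all tested genes). Of the 19, 10 had an unadjusted p under 0.05 and DESeq2 called 7. Over all 13934 tested genes those counts were 3877 and 2342. The fit without replicate 2 called 9 higher and 1 lower, beside 11.9% and 11.5% of all tested genes. NTN4 (netrin 4), a laminin-related basement membrane protein, rose from 8.63 ± 0.894 to 15.7 ± 1.75 CPM (SD, n = 5 each; log2 fold change 0.86 ± 0.12 SE, edgeR adjusted p = 0.00260). CTGF (CCN2), a matricellular growth regulator, rose from 70.5 ± 3.83 to 140 ± 30.8 CPM (0.99 ± 0.15 SE, edgeR adjusted p = 0.00406). TGFBI had 0.75 ± 0.14 SE (edgeR adjusted p = 0.00986), and HMCN1, a large basement membrane fibulin, 1.93 ± 0.37 SE (edgeR adjusted p = 0.0121), or 1.49 without replicate 2. The other was VCAN, a large proteoglycan named after its value was seen (1.36 ± 0.33 SE, edgeR adjusted p = 0.0315, and 0.89 without replicate 2). THBS1 (0.60 ± 0.23 SE) and CYR61 (0.24 ± 0.21 SE) were not called with all libraries (edgeR adjusted p = 0.128 and 0.461). Without replicate 2 both were higher, THBS1 by 0.28 and CYR61 by 0.42 on the log2 scale (edgeR adjusted p = 0.0297 and 5.88e-04).

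The members' transcripts differ widely in GC content, and siUSP9X replicate 2 followed it. Over the 29 tested members, the deviation of that library from the mean of the other siUSP9X libraries, on the log2(CPM + 0.5) scale, ran from -1.81 (COL6A1) to 1.03 (COL12A1), and 7 members lay more than 1 away. It correlated with the GC content of the longest coding transcript with r = -0.56 and with log length with r = 0.62, across genes of 1 library that share its depth, so the genes are not independent replicates. Over 11937 tested genes the values were -0.68 and 0.58. siCtrl 1 also had a negative value (members r = -0.75, all tested genes -0.71), with member deviations from -0.69 to 0.46. Positive values over all tested genes were largest in siUSP9X 4 (0.68), siCtrl 4 (0.60) and siUSP9X 1 (0.52). Each library was set against the mean of the others of its group, which for these held siUSP9X replicate 2 or siCtrl 1. Their positive values are therefore partly built in and are not separate trends. The members' log2 fold change had r = -0.32 with GC content, and -0.18 without replicate 2. Over all 11937 genes those values were -0.45 and -0.20. COL4A5 lay at -0.11 in replicate 2, and its log2 fold change was 0.83 with that library and 0.85 without it.

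**Figure D5:**
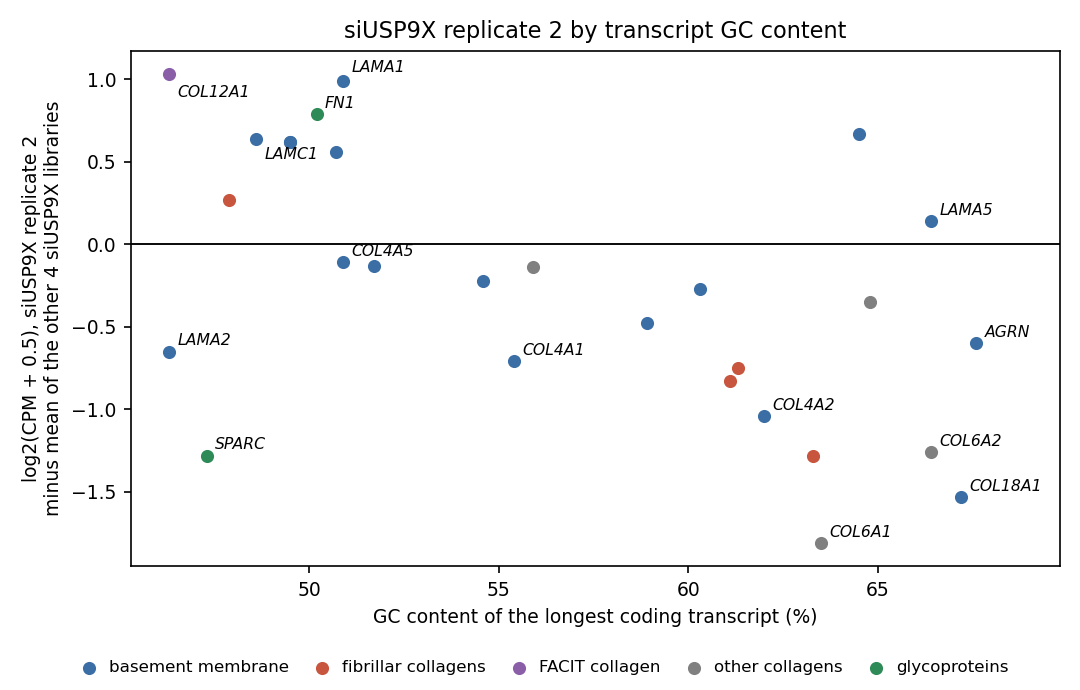
Deviation of siUSP9X replicate 2 from the mean of the other 4 siUSP9X libraries, on the log2(CPM + 0.5) scale, against the GC content of each gene's longest coding transcript in percent, coloured by class. Points are 28 of the tested genes. COL12A1 and FN1, with lower GC content, lie above 0, and COL18A1, COL6A1 and COL6A2, with higher GC content, below -1.

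In earlier work on these same libraries, 4 words of 7 bases in 3′ UTRs were picked from the fold changes, so counts of them are given without a test. At least 1 of the words was in 11 of the 29 tested members (37.9%) and in 31.5% of 11908 tested genes with a UTR. It was in 51.5% of all genes called lower and 28.5% of all genes called higher. The 3′ UTR of COL4A1 holds AACTCTA and CAACTCT, and that of COL4A2 holds AATCACA and ATCACAA. The words of each pair share most of their bases, so a single site could hold both, and sites were not counted. LAMB3, COL4A5 and COL5A2 hold none of the 4.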

How the data were processed

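The deposited table holds whole-number counts per gene symbol, 1 column per library. Per the submitters' processing notes the authors used hg38, RSEM and DESeq2, with no version or role given. The aligner, the annotation, and whether the counts are rounded RSEM estimates (which would split reads between similar genes) are not given in the sources used here. TRIzol extraction and stranded mRNA libraries are recorded per the labels' protocols. Samples were grouped by the treatment label.

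Genes were tested with the edgeR 4.0.16 quasi-likelihood test (R 4.3.3, robust estimation) on the counts, with TMM factors, filterByExpr (minimum count 10), group as the only term and two-sided p-values adjusted by Benjamini-Hochberg over all 13934 tested genes, at a threshold of 0.05. The fit was tested on simulated data. CPM use TMM-scaled totals, and SE is the log2 fold change divided by the root of the F statistic. Ratios were compared by exact permutation (scipy 1.17.1). Symbols matched GENCODE release 29 for all 62 members. Promoter sequences are RefSeq's (GRCh38.p14).

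Members, lists, tests and the rule for genes named (called, among the 12 most abundant, or of named families; per partner list up to 4 called by smallest p and 2 uncalled by level) were chosen with earlier results of these data known. Alternatives were other scalings and filters, DESeq2 1.42.0, limma-voom 3.58.1, a replicate block, leaving out each library and, added after seeing the data, library weights. Every pair of replicates differed beyond sampling noise (chi-square of 5.25 or more per degree of freedom). Counts cover all members and all 6 ratios, but 1 member that the rule names is not reported here.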

Additional observations from a re-analysis of the deposited data

Results flagged for a closer look

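Of 58 sets of 5 libraries (29 members in 2 groups), 9 held a library whose gap to its nearest neighbour was over 0.71 of the whole range, the 95% limit of Dixon's test; chance flags about 1 in 20. The library was siUSP9X replicate 2 in 8 of the 9. It was the highest of its group for LAMC1 (570 CPM against 348 to 387 in the others), FN1 (593 against 306 to 371), COL12A1 (599 against 279 to 307) and LAMB1 (369 against 230 to 245 CPM). It was the lowest for COL6A2 (60.7 CPM against 135 to 162), COL6A1 (2.33 against 8.31 to 10.5), COL1A1 (0.775 against 1.64 to 1.85) and LAMA2 (0.609 against 1.11 to 1.29 CPM). In siCtrl, LAMA2 was highest in replicate 4, at 1.74 CPM against 0.620 to 0.889 CPM. None of the 5 members called with all libraries is among these.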

How the results depend on the processing

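COL4A5 was called in every alternative run and COL5A2 in all but the replicate block and the filter of 5 CPM, which removed it and left 0 fibrillar calls. DESeq2 gave 4 members higher and 2 fibrillar calls. Library weights gave 7 higher, 6 lower and 2 fibrillar calls. The share of all tested genes called with library weights is not given here, so those counts are not read as particular to the members. Over the fits that left out 1 library, 2 to 7 members were higher and 1 to 5 lower, 2 to 6 basement membrane and 1 to 2 fibrillar genes were called, and the medians ran from -0.04 to 0.07 (basement membrane) and 0.39 to 0.62 (fibrillar). The highest counts came without siUSP9X replicate 2, and 1 lower without siCtrl 3, 4 or 5. LAMB3 had an adjusted p of 0.0540 with library totals (edgeR), and FN1 was called with upper-quartile factors, library totals and either other filter (edgeR adjusted p = 0.0348 to 0.0464). With a replicate block 1 member was higher and 0 lower (1 basement membrane, 0 fibrillar call; edgeR adjusted p of COL4A5 0.0379, COL4A1 0.0638, COL5A2 0.0930). Same-numbered libraries did not deviate together (r from -0.42 to 0.23, with 0 of 5 siUSP9X libraries closest to their own number), so pairing by number was not seen. The deviations followed GC content in several libraries, so this check cannot exclude a batch shared by number.

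No called member changed direction in any alternative run. Of the uncalled, these log2 fold changes did when 1 library was left out, ranging from -0.09 to 0.08 for LAMA5, -0.18 to 0.14 for COL18A1, -0.09 to 0.10 for LAMB1, -0.20 to 0.07 for COL6A2, -0.19 to 0.18 for COL11A2 and -0.02 to 0.24 for COL4A2. With library weights COL18A1 turned to 0.04, LAMB1 to -0.10 and COL11A2 to 0.14, and LAMA5 turned to 0.0044 with limma-voom and 0.01 with the replicate block. The cause of these turns was not tested. Depth limits the 33 untested members and those near the filter.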
